A study of Mus musculus with 48 samples.

Results

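The comparison described here is the effect of cisplatin on medullary sinus macrophages (MSM) of tumor-draining lymph nodes (TDLN) in mice. It rests on 6 of the 48 RNA-seq libraries of the series, 3 from mice given cisplatin and 3 from mice given PBS, chosen by their labels for node, cell type and treatment. All mice were tumor-bearing wild-type animals, and the cells were sorted from digested nodes. The tumor, the drug dose, the interval before harvest, the strain, the age and the sort markers are not given in the sources used here. The same cell type from nodes labelled LN, after PBS or cisplatin, entered the statistical model and the comparison between nodes, which makes 12 MSM libraries in 4 groups. The labels do not state whether replicates are different animals or repeat preparations, so p-values may measure technical spread only.

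Medullary sinus macrophages line the lymphatic sinuses of the node medulla, where they clear particles, pathogens and dying cells from lymph before it leaves the node. They are commonly recognised by CD169 (Siglec1), F4/80 (Adgre1) and scavenger receptors such as Marco, and they depend on a large lysosomal compartment. Subcapsular sinus macrophages (SSM) sit upstream of them and pass antigen to B cells. Cisplatin enters cells in part through copper transporters and forms platinum adducts that crosslink DNA within and between strands. These lesions are repaired by nucleotide excision repair and by the Fanconi anemia and recombination pathways, and they activate p53.

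The 6 libraries held 7.65 to 10.22 M counts. Levels below are depth-scaled counts (CPM), adjusted by TMM over the 12 MSM libraries, and are given in the order of replicates 1, 2 and 3. The 3 PBS libraries resembled each other closely, with Pearson correlations of log2 CPM across 7818 genes of 0.992 to 0.994. Cisplatin libraries 2 and 3 correlated at 0.988. The library labelled cisplatin MSM 1 correlated at only 0.690 and 0.700 with these, but at 0.993 and 0.992 with cisplatin SSM 1 and 2 of the same node. The library labelled cisplatin SSM 3 in turn correlated at 0.990 and 0.992 with cisplatin MSM 2 and 3. Cisplatin MSM 2 and 3 were closer to the PBS SSM libraries of the TDLN (0.862 to 0.872) than to its PBS MSM libraries (0.807 to 0.816). Their correlations with LN PBS MSM 1 and 3 were higher, at 0.896 to 0.901, and those with LN PBS MSM 2 lower, at 0.73 and 0.74. These correlations are across genes, which are not independent replicates, and carry no test. Results are therefore given from the model of all 12 MSM libraries, which uses the 3 cisplatin libraries as labelled, and from a model of 10 libraries. That second model leaves out cisplatin MSM 1 and LN PBS MSM 2, which correlated at 0.947 with cisplatin MSM 1, and compares 2 cisplatin with 3 PBS libraries. Its results are described as those without the crossed libraries, a name for their likeness to the other cell label only. A "10-library value" in brackets is the log2 fold change of that model, and each such gene was called in the same direction by both models.

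**Figure D1:**
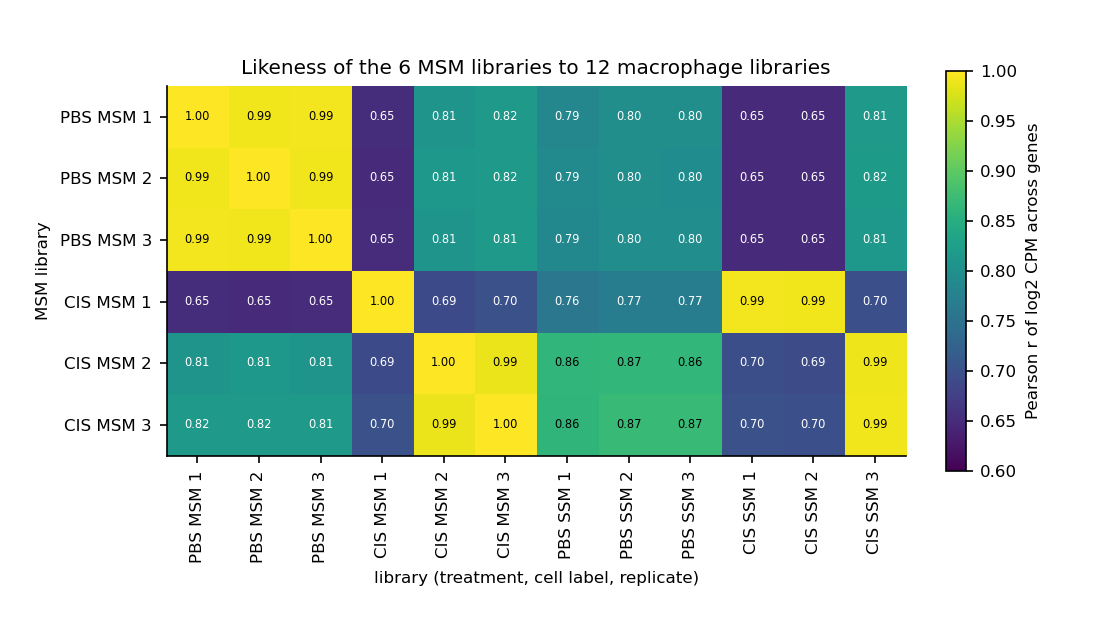
Pearson correlation across 7818 genes of log2 CPM between each of the 6 TDLN MSM libraries (rows) and the 12 TDLN macrophage libraries (columns), by treatment (PBS or CIS, cisplatin), cell label and replicate. Cisplatin MSM 1 stands with cisplatin SSM 1 and 2 at 0.99, while cisplatin MSM 2 and 3 stand with each other and with cisplatin SSM 3.

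The label was checked against macrophage markers. Lyz2, Csf1r and Adgre1 were present in all 6 libraries, but the medullary genes Marco, Cd209b and Lyve1 were scarce in 5 of them. They belong to a list of 12 medullary markers, of which 10 were tested. With all 3 libraries 0 were called higher and 2 lower, and without the crossed libraries 2 higher and 7 lower. Other members were present throughout. Slc40a1 stood at 134.0, 126.2 and 123.6 CPM with PBS and at 91.1, 52.6 and 46.6 CPM with cisplatin. Hmox1 stood at 156.0, 150.2 and 156.6 CPM with PBS and at 811.8, 32.2 and 30.9 CPM with cisplatin. Marco stood at 1.08, 0.50 and 1.22 CPM with PBS and at 1044, 3.60 and 4.71 CPM with cisplatin. Cd209b, a lectin receptor that binds microbial sugars, stood at 2.51, 2.88 and 3.24 CPM with PBS and at 6851, 4.92 and 4.58 CPM with cisplatin. Lyve1, a hyaluronan receptor, had no count in any library but cisplatin 1, where it stood at 16.5 CPM. Timd4, a receptor for phosphatidylserine on dying cells, was present throughout, at 147, 160 and 141 CPM with PBS and at 1391, 36.1 and 33.5 CPM with cisplatin. Both Marco and Cd209b were thus high in cisplatin 1 alone. Genes of other cells were present as well. The summed CPM of 14 neutrophil markers lay at 12768, 12735 and 12396 with PBS and at 1075, 8701 and 8897 with cisplatin, and that of 12 T cell markers at 3065, 2944 and 3020 against 699.5, 2124 and 2315. The summed marker RNA was lower with cisplatin for both classes and lowest in cisplatin 1. The mast cell and B cell sums given below were higher with cisplatin, and the B cell sum was highest in cisplatin 1. The part of other cells in the results was not tested, and in bulk libraries fewer cells of a type and less RNA per cell cannot be told apart.

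With all 3 cisplatin libraries 4357 of 17002 genes tested were called higher (25.6%) and 1948 lower (11.5%) at an adjusted p under 0.05, 37.1% in all. The groups did not overlap for 52.6% of the genes tested. In the 10-library model 7648 of 18374 genes were higher (41.6%) and 5026 lower (27.4%), and with 2-fold or more as a further condition 5133 were higher (27.9%) and 2293 lower (12.5%). When cisplatin 1 alone was left out the counts were 5489 and 2862. Both models called 4293 genes higher (25.2%) and 1948 lower (11.5%) in the same direction, and of the genes tested with all 3 the 10-library model alone called a further 2631 higher and 2960 lower. Calls were thus common, and a count within a gene list is to be read against these shares. The typical biological coefficient of variation was 0.418 in the first model and 0.0711 in the second.

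The cisplatin libraries also held counts for more genes. With PBS 17669, 17684 and 17444 genes had at least 1 count, and with cisplatin 21598, 24004 and 23719 did. PBS 1 held 8.68 M counts, cisplatin 1 held 10.22 M, cisplatin 2 held 8.37 M and cisplatin 3 held 7.91 M. The part of depth in the number of genes was not tested. There were 162 genes with no count in any PBS library and at least 5 CPM in every cisplatin library, against 23 genes in the reverse position. Of the genes called higher with all 3 libraries, 1409 had no PBS count at all and 1883 had at most 3 over the 3 libraries. Among the 7551 genes with a mean of at least 20 CPM the split was more even, with 1359 called higher (18.0%) and 987 lower (13.1%). What the larger number of detected genes contributes to rises from 0 was not tested, so genes well covered with PBS carry most of the account below.

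Among the abundant transcripts, lysozyme fell. Lyz2, the macrophage lysozyme that cleaves bacterial cell walls (GRCm38 chromosome 10, 117277331 to 117282321, minus strand), stood at 21390, 21180 and 21300 CPM with PBS and at 9565, 7325 and 7097 CPM with cisplatin. Its log2 fold change was -1.41 ± 0.14 (standard error, adjusted p = 6.37e-05) with all 3 and -1.56 ± 0.04 (adjusted p = 1.74e-16) without the crossed libraries. No cisplatin library overlapped with PBS, but genes named by size of change or CPM difference were chosen with that as a condition. Its neighbour and near copy Lyz1 fell by 2.06 on the log2 scale, from 2668, 2773 and 2597 CPM to 490.8, 716.0 and 721.6 CPM. Reads of the pair may be divided between them by the counting, so their separate values are uncertain.

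A share of the lysosomal genes fell with it, while others divided the cisplatin group. Of 31 genes tested from a list of lysosomal enzymes and membrane proteins, 10 were called lower and 0 higher with all 3 libraries, and 27 lower and 1 higher without the crossed libraries. The median log2 fold change of the list was -0.40 with all 3, where that of all genes tested was 0.19, and -0.53 without the crossed libraries, where it was 0.14. Ctsd, the aspartic protease cathepsin D, stood at 2906, 2884 and 2801 CPM with PBS and at 914.9, 1177 and 1174 CPM with cisplatin. Its log2 fold change was -1.40 ± 0.14 (adjusted p = 6.26e-05, 10-library value -1.28). Every cisplatin library lay below every PBS library, which was a condition for naming it. Gaa, the acid glucosidase that degrades lysosomal glycogen, went from 230.0, 208.4 and 226.2 CPM to 81.2, 107.5 and 106.1 CPM (log2 fold change -1.17 ± 0.16, adjusted p = 0.000421, 10-library value -1.05). Tpp1, a lysosomal peptidase, fell by 0.95 on the log2 scale (adjusted p = 0.00549, 10-library value -1.23). The abundant members Ctsb, Ctss and Grn were not called with all 3, and cisplatin 1 stood above every PBS library for each. Ctsb was at 2962, 788.7 and 816.3 CPM with cisplatin against 2709 to 2799 CPM with PBS. The summed CPM of the list was 16011, 8612 and 8683 with cisplatin against 16848 to 17123 with PBS.

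Psap, the precursor of the saposins that help break down sphingolipids, was lower in all 3 libraries but least so in the first, at 2403, 1331 and 1429 CPM against 2801, 2759 and 2720 CPM with PBS. The fitted log2 fold change was -0.68 ± 0.23 with all 3 (adjusted p = 0.0381) and -1.0 ± 0.05 without the crossed libraries. The calls of Psap, Ctsa and Lamp1 with all 3 libraries were lost when any of cisplatin 2, cisplatin 3 or a PBS library was left out.

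A family of transcription factors around TFEB controls many lysosomal genes through the palindrome CACGTG. In the RefSeq promoter table (GRCm38.p6) the 250 bases before the start held CACGTG in 1854 of 27025 genes (6.9%). It was present for 5 of the 9 called lysosomal genes with an entry (55.6%), namely Ctsa, Ctsd, Gaa, Lamp1 and Mcoln1, and for 4 of the 15 that were tested and not called (26.7%). These are calls with all 3 libraries. Without the crossed libraries 27 of 31 were called lower, so the split does not separate falling from unchanged genes. The windows of 3 genes that fell are shown 5′ to 3′ on the strand of the gene, with every CACGTG (a palindrome, alike on both strands) in capitals, to let the element be seen in its context. They are chr7:142387828-142388077 (minus) for Ctsd, chr11:119267713-119267962 (plus) for Gaa and chr2:164833523-164833772 (plus) for 1 of the 2 listed starts of Ctsa.
Ctsd: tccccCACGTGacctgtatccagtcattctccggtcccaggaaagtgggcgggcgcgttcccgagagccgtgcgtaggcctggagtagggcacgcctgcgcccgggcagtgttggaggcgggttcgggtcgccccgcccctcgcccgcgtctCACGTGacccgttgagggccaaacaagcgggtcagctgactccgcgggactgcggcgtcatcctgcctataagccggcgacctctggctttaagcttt
Gaa: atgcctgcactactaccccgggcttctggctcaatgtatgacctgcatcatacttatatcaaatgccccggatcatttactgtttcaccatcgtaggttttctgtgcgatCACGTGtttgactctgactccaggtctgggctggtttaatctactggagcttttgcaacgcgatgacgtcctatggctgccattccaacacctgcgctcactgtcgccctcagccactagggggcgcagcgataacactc
Ctsa: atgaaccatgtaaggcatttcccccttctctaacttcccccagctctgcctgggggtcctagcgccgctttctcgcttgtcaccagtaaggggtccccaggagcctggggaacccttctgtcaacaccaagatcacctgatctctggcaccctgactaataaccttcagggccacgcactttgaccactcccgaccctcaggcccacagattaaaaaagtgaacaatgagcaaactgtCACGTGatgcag
Ctsd holds 2 matches and the other genes 1 each. A match is a description of the letters and no evidence that a factor bound there.

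Complement genes made by macrophages changed in both directions. Of 18 complement genes tested, 3 were called lower and 2 higher with all 3 libraries, and 7 lower and 5 higher without the crossed libraries. Over all genes 11.5% were lower and 25.6% higher with all 3, and 27.4% and 41.6% without the crossed libraries. Cfb, factor B of the alternative pathway, stood at 1224, 1189 and 1195 CPM with PBS and at 438.7, 278.3 and 281.3 CPM with cisplatin (log2 change -1.85 ± 0.18, adjusted p = 5.64e-05, 10-library value -2.10). C3, the central complement component, fell from 550.6, 532.1 and 562.9 CPM to 182.0, 209.4 and 211.1 CPM, a log2 fold change of -1.45 ± 0.11 (adjusted p = 1.20e-05, 10-library value -1.38). Neither gene overlapped between the groups, which for Cfb was a condition for naming it. Of all genes tested 52.6% did not overlap. Cfp, the properdin that stabilises the alternative convertase, was 761.8, 278.4 and 276.7 CPM with cisplatin against 946.2 to 999.6 CPM with PBS (log2 fold change -1.15 ± 0.39, adjusted p = 0.0395, 10-library value -1.81). That call was lost without cisplatin 2, cisplatin 3 or any PBS library.

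The C1q chains, which tag debris for uptake, divided the cisplatin group. C1qb stood at 641.2, 600.1 and 600.8 CPM with PBS and at 1353, 54.6 and 58.2 CPM with cisplatin. The first library was thus above every PBS library and the other libraries far below. With all 3 the log2 fold change was -0.33 ± 1.14 (adjusted p = 0.861), and without the crossed libraries it was -3.45 ± 0.07 (adjusted p = 2.11e-17). C1qa and C1qc showed the same pattern, with log2 fold changes of -3.75 and -3.25 without the crossed libraries.

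General macrophage genes also depended on the first library. Of 12 sinus macrophage markers 1 was called lower and 1 higher with all 3, and 8 lower and 3 higher without the crossed libraries. Siglec1 stood at 150.8, 129.0 and 146.7 CPM with PBS and at 189.2, 18.2 and 25.7 CPM with cisplatin. The log2 fold change here was -0.87 ± 1.14 (adjusted p = 0.592) with all 3 and -2.70 ± 0.14 without the crossed libraries. Cd68, a lysosomal membrane glycoprotein of macrophages, fell by 2.14 on that scale in the 10-library model and Csf1r, the receptor for CSF1, by 1.02. Adgre1 went the other way, from 313.1, 295.2 and 294.9 CPM to 526.1 and 504.6 CPM in cisplatin 2 and 3, a rise of 0.78 ± 0.05 on the log2 scale (adjusted p = 4.20e-10), while cisplatin 1 held 167.5 CPM. Vcam1, an adhesion molecule of sinus macrophages, was lower in every cisplatin library, at 237.7, 50.8 and 49.5 CPM against 347.4 to 372.8 CPM with PBS (log2 fold change -1.69 ± 0.56, adjusted p = 0.0375 with all 3, 10-library value -2.86). That call was lost without any 1 library other than cisplatin 1.

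MHC class II genes divided the cisplatin group in the same way as the C1q chains. H2-Ab1, a chain of the molecule that presents peptides to CD4 T cells, stood at 1997, 1841 and 1907 CPM with PBS and at 7411, 983.5 and 1001 CPM with cisplatin. The model estimated a log2 change of 0.71 ± 0.65 (adjusted p = 0.425) with all 3 and -0.95 ± 0.04 without the crossed libraries. Cd74, the invariant chain, had log2 fold changes of 0.84 (adjusted p = 0.298) and -0.53 in the same order. Of 14 class II genes 2 were called higher and 0 lower with all 3, against 4 higher and 8 lower without the crossed libraries.

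**Figure D2:**
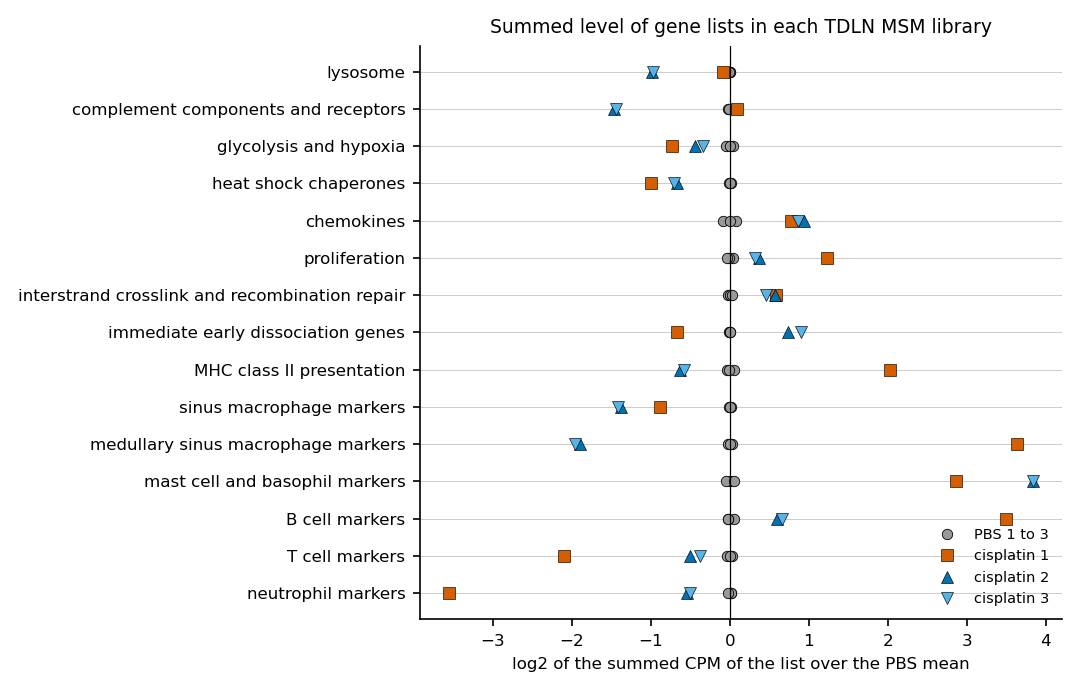
Summed CPM of 15 gene lists in each TDLN MSM library, as log2 of the ratio to the PBS mean; circles are PBS libraries, the square is cisplatin 1 and the up and down triangles are cisplatin 2 and 3. The crosslink repair, chemokine, proliferation and mast cell sums lay above PBS in all 3 cisplatin libraries, while the medullary marker, MHC class II and immediate early sums lay on opposite sides of PBS in cisplatin 1 and in cisplatin 2 and 3.

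Chemokine genes with a call were all higher with cisplatin when all 3 libraries were used. Of 19 tested 8 were called higher and 0 lower with all 3 libraries, and 11 higher and 4 lower without the crossed libraries. Ccl2, which recruits monocytes through CCR2, stood at 2.03, 2.75 and 1.35 CPM with PBS and at 51.5, 101.2 and 98.0 CPM with cisplatin. On the log2 scale the change was 5.34 ± 0.78 (adjusted p = 0.000598, 10-library value 5.59). Ccl7, a related CCR2 ligand, had 1 PBS count in all and stood at 110.9, 68.6 and 70.3 CPM with cisplatin (adjusted p = 0.0125, lost when any PBS library was left out). Each cisplatin library was above each PBS library for both genes, which for Ccl7 was a condition for naming it. Ccl5, a T cell and monocyte attractant, rose by 2.85 ± 0.57 on the log2 scale (adjusted p = 0.00343, 10-library value 3.28), from 10.39, 10.87 and 12.82 CPM to 25.4, 99.9 and 120.7 CPM. Ccl22, which attracts regulatory T cells through CCR4, had 3 counts over the PBS libraries and 14.1, 155.7 and 155.9 CPM with cisplatin (adjusted p = 0.000758). Cx3cl1, the membrane-bound ligand of CX3CR1, had no PBS count and stood at 13.6, 178.3 and 174.1 CPM with cisplatin, at least 321.5-fold higher against a floor of 3 counts per PBS library. In these last genes the first cisplatin library was the lowest of the 3.

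Most markers of migratory dendritic cells rose too, 8 of 12 with 1 lower with all 3, and 10 with 2 lower without the crossed libraries. Ccr7, the receptor that guides dendritic cells and T cells within the node, stood at 59.7, 55.5 and 60.6 CPM with PBS and at 1484, 1070 and 1105 CPM with cisplatin. The log2 fold change was 4.38 ± 0.64 (adjusted p = 0.000593) with all 3 and 4.21 ± 0.06 without the crossed libraries. Cd83, which is not on that list and stabilises surface MHC class II, stood at 295.4, 275.2 and 291.0 CPM with PBS and at 2158, 1189 and 1122 CPM with cisplatin (log2 change 2.38 ± 0.47, adjusted p = 0.00309, 10-library value 2.01). The groups were far apart for both genes, and lack of overlap was a condition for naming them. Cd40, the receptor for T cell help and likewise not on it, had 2 counts over the PBS libraries and stood at 147.8, 47.9 and 45.3 CPM with cisplatin (adjusted p = 1.51e-05). The summed CPM of the 12 migratory dendritic cell markers was 1915, 2194 and 2286 with cisplatin against 725.3 to 777.9 with PBS. Il4i1, called lower in both models, went from 509.2, 468.0 and 509.2 CPM to 253.6, 295.0 and 289.3 CPM. Cd200 was called lower without the crossed libraries only. Whether dendritic cells were among the sorted cells was not tested.

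Immediate early genes divided the cisplatin libraries, with a summed CPM of 10994 in cisplatin 1 and of 29062 and 32676 in the others against 17322 to 17528 with PBS. Some transcription factors among them, and the RNA-destabilising factor Zfp36, were higher in all 3. Egr1 stood at 331.8, 343.7 and 352.4 CPM with PBS and at 523.7, 1760 and 1930 CPM with cisplatin (log2 change 2.04 ± 0.37, adjusted p = 0.00202, 10-library value 2.43). Jun stood at 205.9, 209.4 and 217.7 CPM with PBS and at 479.2, 838.9 and 921.3 CPM with cisplatin (log2 change 1.82 ± 0.21, adjusted p = 0.000118, 10-library value 2.06). Neither overlapped between groups, which was a condition for naming them. Of 16 genes on this list, which are also known to respond to tissue digestion, 5 were called higher and 0 lower with all 3, and 14 higher and 0 lower without the crossed libraries. The part of the digestion in these values was not tested. Of 19 genes of NF-kB feedback and inflammatory cytokines 1 was called higher and 1 lower with all 3, and 11 higher and 4 lower without the crossed libraries. Il1b, the inflammasome-processed cytokine, was 465.0, 458.5 and 462.6 CPM with PBS and 422.0, 1392 and 1389 CPM with cisplatin, and its log2 fold change was 1.21 ± 0.52 (adjusted p = 0.0946) with all 3 and 1.59 ± 0.04 (adjusted p = 2.00e-15) without the crossed libraries.

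**Figure D3:**
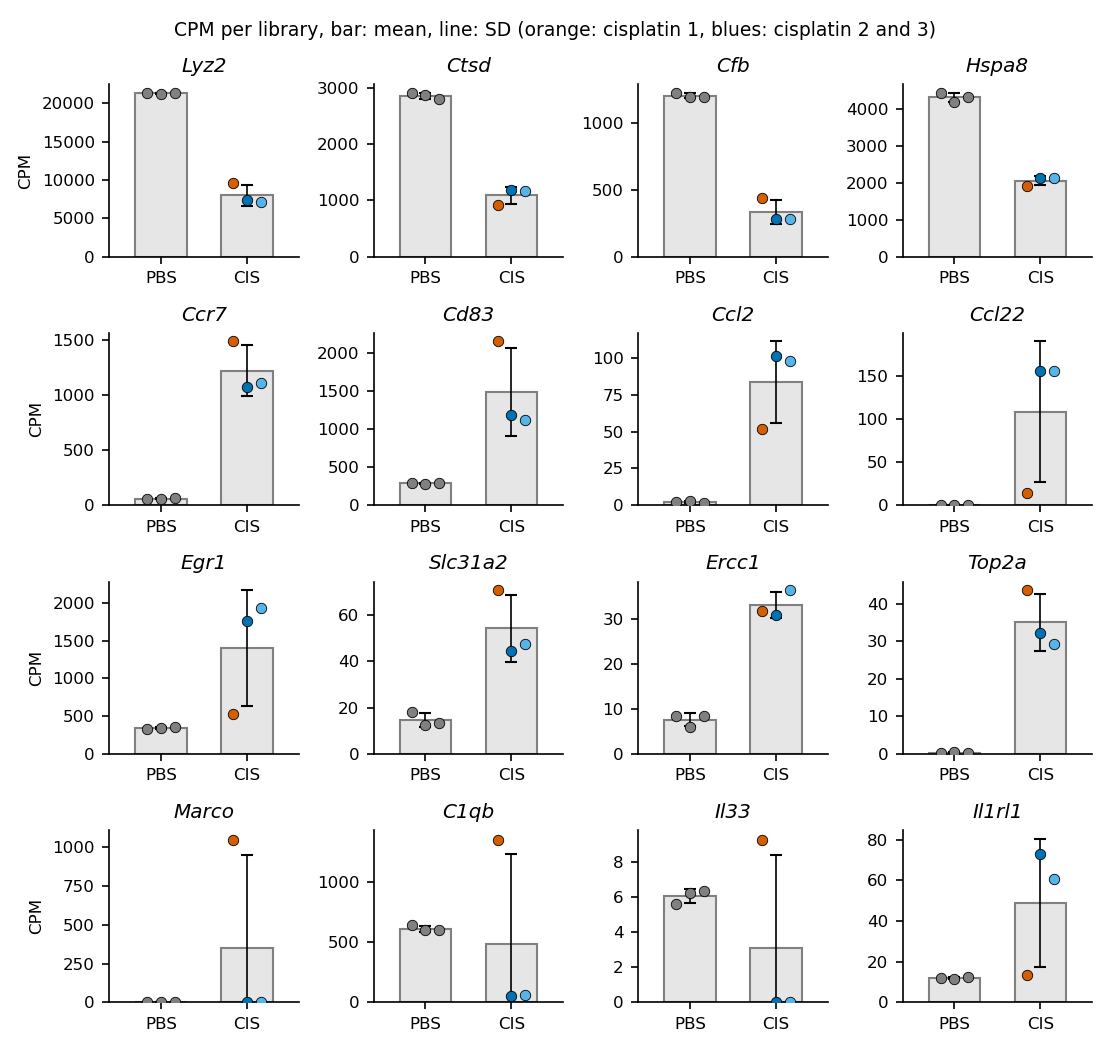
CPM of 16 genes in the 6 TDLN MSM libraries (vertical axes start at 0 and differ between panels); bars are means, lines SD (n = 3 libraries), grey points PBS, orange cisplatin 1 and blue cisplatin 2 and 3. Lyz2, Ctsd, Cfb and Hspa8 lay lower in every cisplatin library, Ccr7, Cd83, Ccl2, Ercc1 and Top2a higher in every one, and Marco, C1qb and Il33 divided the cisplatin group.

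Platinum transport genes were examined because they set how much drug a cell takes up. Of 20 genes of platinum transport and thiol defence tested, 4 were called higher and 3 lower with all 3, and 7 higher and 8 lower without the crossed libraries. Slc31a2, a copper transporter related to CTR1, stood at 18.0, 12.6 and 13.2 CPM with PBS and at 71.0, 44.7 and 47.5 CPM with cisplatin (log2 change 1.89 ± 0.23, adjusted p = 0.000209, 10-library value 1.65). Slc31a1, which encodes CTR1 itself and carries cisplatin inward, stood at 21.1, 23 and 24 CPM with PBS and at 61.0, 34.0 and 28.4 CPM with cisplatin. The fitted log2 fold change was 0.86 ± 0.24 (adjusted p = 0.0187) with all 3 and 0.46 ± 0.11 without the crossed libraries, and the former call was lost without any 1 of the PBS libraries. Both transporters were thus higher in every cisplatin library. Atp7a, a copper exporter, had 1 PBS count and stood at 26.6, 25.1 and 22.4 CPM with cisplatin (adjusted p = 2.00e-06). Gstp1, a glutathione transferase that conjugates electrophiles, fell by 0.34 ± 0.11 on the log2 scale (adjusted p = 0.0381, 10-library value -0.40), a call lost without cisplatin 2, cisplatin 3 or PBS 1.

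Genes of crosslink repair had more higher than lower calls, as did all genes tested. Of 24 genes of interstrand crosslink and recombination repair tested, 11 were called higher and 2 lower with all 3 (median log2 fold change 0.70), and 16 higher and 4 lower without the crossed libraries. The shares over all genes were 25.6% higher and 11.5% lower with all 3, and 41.6% and 27.4% without the crossed libraries. Ercc1, the partner of XPF in the nuclease that cuts beside platinum lesions, stood at 8.48, 5.87 and 8.37 CPM with PBS and at 31.9, 31.0 and 36.5 CPM with cisplatin. The log2 fold change here was 2.13 ± 0.17 (adjusted p = 1.52e-05, 10-library value 2.15). The groups did not overlap, as for 52.6% of all genes tested. Mus81, a nuclease for branched DNA, stood at 21.5, 20.8 and 22.8 CPM with PBS and at 43.7, 53.9 and 49.4 CPM with cisplatin (log2 change 1.18 ± 0.18, adjusted p = 0.000875, 10-library value 1.25). Fancg, part of the Fanconi anemia core complex, rose by 0.69 ± 0.11 (adjusted p = 0.00116, 10-library value 0.71). Members of the same pathway moved the other way. Fancc, another subunit of that complex, fell from 33.1, 27.1 and 28.2 CPM to 9.83, 6.0 and 6.11 CPM (log2 fold change -2.01 ± 0.43, adjusted p = 0.00494, 10-library value -2.28). Rev1, a translesion polymerase scaffold, fell by 0.63 ± 0.17 (adjusted p = 0.0180, 10-library value -0.55, 12-library call lost without cisplatin 3).

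In nucleotide excision repair 6 of 17 genes were called higher and 2 lower with all 3, where the median log2 fold change was -0.03, and 7 higher and 6 lower without the crossed libraries. Ercc3, a helicase of TFIIH, stood at 11.4, 10.1 and 9.04 CPM with PBS and at 37.2, 34.7 and 33.0 CPM with cisplatin (log2 change 1.78 ± 0.30, adjusted p = 0.00129, 10-library value 1.73). Lig1, the ligase that seals repair and replication nicks, rose by 2.24 ± 0.26 (adjusted p = 0.000131, 10-library value 2.03). Rpa2, a subunit of the protein that coats single-stranded DNA, fell from 82.2, 74.6 and 73.0 CPM to 38.6, 28.8 and 30.2 CPM (log2 fold change -1.24 ± 0.15, adjusted p = 0.000224, 10-library value -1.38). The groups did not overlap for any of these genes, as for 52.6% of all genes tested.

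Targets of p53 did not move as a group. Of 24 tested 6 were called higher and 3 lower with all 3, where the median log2 fold change was 0.00, and 11 higher and 7 lower without the crossed libraries. Cdkn1a, the cell cycle inhibitor p21, stood at 448.7, 454.6 and 476.1 CPM with PBS and at 91.6, 503.5 and 559.9 CPM with cisplatin. The model estimated a log2 change of -0.26 ± 0.56 (adjusted p = 0.767) with all 3 and 0.21 ± 0.06 (adjusted p = 0.00373) without the crossed libraries. Mdm2, which degrades p53, stood at 79.7, 82.9 and 76.8 CPM with PBS and at 75.9, 97.0 and 87.1 CPM with cisplatin (adjusted p = 0.489 with all 3). Bax, a pore-forming death protein, was 124.6 to 132.0 CPM with PBS and 110.2 to 130.7 CPM with cisplatin. For Cdkn1a and Mdm2 cisplatin values lay on both sides of the PBS values, and for Bax the cisplatin libraries lay below or among them. Those that rose included Plk2, a kinase, from 90.6, 108.4 and 101.1 CPM to 246.4, 241.4 and 240.7 CPM (log2 fold change 1.28 ± 0.11, adjusted p = 2.16e-05, 10-library value 1.27). Pmaip1, the BH3-only protein NOXA, rose by 2.02 ± 0.37 (adjusted p = 0.00229, 10-library value 2.36), and Ddb2, a sensor of damaged bases, by 1.06 ± 0.16 (adjusted p = 0.000732, 10-library value 1.09). Phlda3, an inhibitor of AKT signalling, fell by 1.74 on the log2 scale (adjusted p = 0.00161, 10-library value -1.85).

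**Figure D4:**
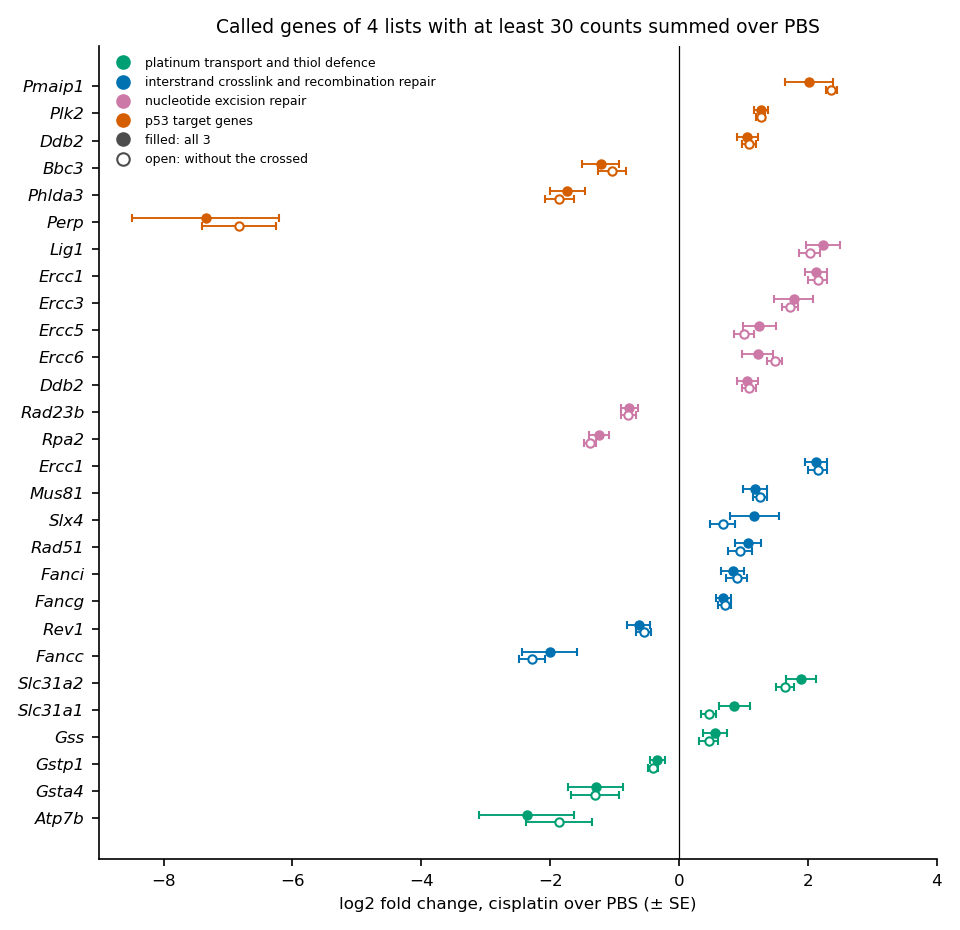
Log2 fold change (cisplatin over PBS, ± SE) of genes called with all 3 cisplatin libraries in 4 lists, for genes with at least 30 counts summed over PBS; filled points are the 12-library model, open points the 10-library model. Ercc1, Lig1, Pmaip1 and Slc31a2 lay to the right of 0 and Fancc, Rpa2 and Phlda3 to the left in both models.

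Apoptosis regulators changed in both directions, with 6 of 19 called higher and 4 lower with all 3, and 8 higher and 6 lower without the crossed libraries. Shares over all genes were 25.6% higher and 11.5% lower with all 3, and 41.6% and 27.4% without the crossed libraries. The survival factor Bcl2 stood at 16.4, 18.0 and 16.1 CPM with PBS and at 35.3, 67.2 and 69.0 CPM with cisplatin (log2 change 1.76 ± 0.24, adjusted p = 0.000357, 10-library value 2.02). Cflar, which blocks caspase 8, rose by 1.12 ± 0.23 (adjusted p = 0.00444, 10-library value 0.88). Apaf1, the scaffold of the apoptosome, fell by 1.12 on the same scale (adjusted p = 0.00204, 10-library value -0.93) and Bad, a pro-death BCL2 relative, by 0.69 (adjusted p = 0.0182, 10-library value -0.83, 12-library call lost without cisplatin 2, cisplatin 3 or PBS 3).

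Proliferation genes were higher, most of them from a very low start. Of 30 tested 22 were called higher and 0 lower with all 3, and 22 higher and 4 lower without the crossed libraries. Top2a, a topoisomerase of dividing cells, had 6 counts over the PBS libraries (0.120, 0.375 and 0.270 CPM) and stood at 43.7, 32.3 and 29.2 CPM with cisplatin (log2 change 7.03 ± 0.36, adjusted p = 1.97e-06, 10-library value 6.84). Mki67, the Ki-67 antigen, stood at 0.358, 0.875 and 0.810 CPM with PBS and at 26.7, 27.7 and 24.8 CPM with cisplatin (log2 change 5.26 ± 0.31, adjusted p = 2.79e-06, 10-library value 5.25). Both were near absent with PBS and alike in the 3 cisplatin libraries. Replication genes already present with PBS did not move together, since Mcm3, Mcm5, Mcm6 and Pcna were not called with all 3, and Mcm5 and Mcm6 fell by 0.61 and 0.40 on the log2 scale without the crossed libraries. Mcm2, part of the replicative helicase, stood at 43.1, 34.3 and 36.5 CPM with PBS and at 80.1, 55 and 48.8 CPM with cisplatin (log2 change 0.69 ± 0.20, adjusted p = 0.0198, 10-library value 0.45, 12-library call lost when PBS 2 or PBS 3 was left out).

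Genes of late cell cycle phases often carry CCAAT elements and the letters TTTGAA in their promoters. In the 250 bases before the start CCAAT, on either strand, was found for 14 of the 18 called proliferation genes with an entry (77.8%), for 6 of the 6 tested and not called and for 37.5% of all 27025 genes. TTTGAA on either strand was found for 7 of the 18 (38.9%), 1 of the 6 (16.7%) and 18.3% of all genes. The window of Top2a (chr11:99024190-99024439, GRCm38.p6, minus strand) is shown 5′ to 3′ because it holds both elements, with each CCAAT or TTTGAA, or its reverse complement, in capitals.
Top2a: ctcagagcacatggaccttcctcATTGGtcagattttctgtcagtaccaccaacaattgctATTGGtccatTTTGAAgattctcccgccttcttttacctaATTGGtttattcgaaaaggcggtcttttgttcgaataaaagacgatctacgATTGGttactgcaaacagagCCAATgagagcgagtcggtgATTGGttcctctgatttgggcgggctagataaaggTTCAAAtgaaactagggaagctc
It holds 8 matches. These shares describe the genes and say nothing of what changed their RNA.

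Glycolysis and chaperone genes had more lower than higher calls. Of 19 glycolysis and hypoxia genes 7 were called lower and 1 higher with all 3, with a median log2 fold change of -0.57, and 13 lower and 4 higher without the crossed libraries. Pgk1, the glycolytic phosphoglycerate kinase, stood at 275.7, 274.7 and 278.6 CPM with PBS and at 172.0, 149.6 and 147.8 CPM with cisplatin (log2 change -0.82 ± 0.11, adjusted p = 0.000443, 10-library value -0.89). The constitutive chaperone Hspa8 stood at 4432, 4181 and 4303 CPM with PBS and at 1911, 2127 and 2122 CPM with cisplatin (log2 change -1.07 ± 0.17, adjusted p = 0.000821, 10-library value -1.02). The inducible chaperone Hspa1a, which has a near-identical copy, stood at 9.92, 14.6 and 13.0 CPM with PBS and at 17.6, 61.2 and 69.0 CPM with cisplatin (log2 change 1.98 ± 0.46, adjusted p = 0.00788, 10-library value 2.38). Of 13 chaperones 4 were called lower and 2 higher with all 3, and 8 lower and 2 higher without the crossed libraries, and the constitutive and the inducible HSP70 moved in opposite directions.

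Sterol genes with a call lay in both directions, as did all genes tested. Of 20 genes of cholesterol synthesis and efflux 6 were called higher and 4 lower with all 3, and 9 higher and 7 lower without the crossed libraries. Over all genes 25.6% were higher and 11.5% lower with all 3, and 41.6% and 27.4% without the crossed libraries. Srebf2, the regulator of sterol synthesis, stood at 55.2, 68.2 and 65.6 CPM with PBS and at 182.0, 158.7 and 177.3 CPM with cisplatin (log2 change 1.45 ± 0.14, adjusted p = 3.75e-05, 10-library value 1.42). Idi1, an isomerase of isoprenoid synthesis, rose by 4.83 ± 0.25 (adjusted p = 1.99e-06, 10-library value 4.92), from 1.08 to 1.62 CPM in PBS libraries to 35.5, 44.9 and 40.2 CPM. Pltp, which transfers phospholipids onto lipoproteins, fell by 1.67 ± 0.43 (adjusted p = 0.0128, 10-library value -2.57). Apoe, the lipoprotein secreted by macrophages, stood at 10260, 9131 and 10100 CPM with PBS and at 9224, 1449 and 1534 CPM with cisplatin. It was called only without the crossed libraries, at -2.72 ± 0.06.

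Interferon-induced genes changed in both directions, with 5 of 32 called higher and 5 lower with all 3, and 8 higher and 15 lower without the crossed libraries. Among all genes tested 25.6% were higher and 11.5% lower with all 3, and 41.6% and 27.4% without the crossed libraries. Ifit2, which binds viral RNA caps, stood at 82.8, 87.7 and 84.0 CPM with PBS and at 23.3, 9.49 and 8.53 CPM with cisplatin (log2 change -2.62 ± 0.38, adjusted p = 0.000598, 10-library value -3.23). Oas3, which makes the activator of RNase L, fell by 2.13 ± 0.39 (adjusted p = 0.00223, 10-library value -2.24) and Ifit1 by 1.83 ± 0.45 (adjusted p = 0.0105, 10-library value -1.60). Irf9, the DNA-binding subunit of ISGF3, rose by 0.56 ± 0.14 (adjusted p = 0.00996, 10-library value 0.41, 12-library call lost without PBS 1 or PBS 3).

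Of 8 Fc gamma receptor genes 3 were called higher and 1 lower with all 3, and 4 higher and 3 lower without the crossed libraries. Fcgr2b, the inhibitory Fc gamma receptor, stood at 35.4, 39.8 and 36.2 CPM with PBS and at 127.0, 121.3 and 115.6 CPM with cisplatin (log2 change 1.71 ± 0.14, adjusted p = 1.90e-05, 10-library value 1.68). The activating receptor Fcgr4 stood at 35.7, 34.5 and 38.9 CPM with PBS and at 2.63, 5.76 and 3.82 CPM with cisplatin (log2 change -3.16 ± 0.48, adjusted p = 0.000687, 10-library value -2.91). Cd274, which encodes PD-L1, rose by 0.98 ± 0.25 (adjusted p = 0.0128, 10-library value 1.24, 12-library call lost without PBS 1 or PBS 3), from 62.4, 72 and 65.6 CPM to 81.2, 159.4 and 154.9 CPM. Lgals9, a ligand of TIM-3, fell by 0.65 ± 0.15 (adjusted p = 0.00678, 10-library value -0.79) and Havcr2, TIM-3 itself, by 1.36 ± 0.30 (adjusted p = 0.00565, 10-library value -1.44). Of 12 checkpoint and tolerance genes tested 3 were called higher and 3 lower with all 3, and 4 in each direction without the crossed libraries.

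Genes outside these lists fell as well. Mmp2, a gelatinase, stood at 75.4, 71.6 and 77.2 CPM with PBS and at 8.71, 2.04 and 2.42 CPM with cisplatin (log2 change -4.07 ± 0.52, adjusted p = 0.000587, 10-library value -5.06). Tmem119, a transmembrane protein used as a microglial marker in brain, stood at 54.8, 54.4 and 57.6 CPM with PBS and at 3.04, 6.72 and 6.75 CPM with cisplatin (log2 change -3.34 ± 0.40, adjusted p = 0.000183, 10-library value -3.04). Il22ra2, the soluble antagonist of IL-22, went from 402.6, 432.3 and 412.1 CPM to 40.4, 87.4 and 75.4 CPM (log2 fold change -2.62 ± 0.29, adjusted p = 9.97e-05, 10-library value -2.35). All 3 genes lay lower in each cisplatin library than in any PBS library, which was a condition for naming them. Tbxas1, thromboxane synthase, fell by 2.75 ± 0.45 (adjusted p = 0.00106, 10-library value -2.34) and Usp2, a deubiquitinase, by 2.66 ± 0.46 (adjusted p = 0.00161, 10-library value -2.35).

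The study's title names IL-33, an alarmin of the IL-1 family, whose receptor ST2 is encoded by Il1rl1. Il33 (GRCm38 chromosome 19, 29925114 to 29960718, plus strand) stood at 5.61, 6.25 and 6.34 CPM with PBS and at 9.22, 0 and 0 CPM with cisplatin. With all 3 libraries the log2 fold change was -0.96 ± 2.10 (adjusted p = 0.766). Cisplatin 2 and 3 held no count, so that in the 10-library model the level was at least 16.4-fold lower against a floor of 3 counts per library (adjusted p = 4.25e-07). When cisplatin 1 alone was left out of the 12 libraries the adjusted p was 0.111. The fitted change in Il33 was thus negative with and without cisplatin 1, while its size and its call depended on that library and on the model. Il1rl1 (GRCm38 chromosome 1, 40429570 to 40465415, plus strand) stood at 11.9, 11.5 and 12.4 CPM with PBS and at 13.4, 73.1 and 60.6 CPM with cisplatin. On the log2 scale the change was 2.03 ± 0.65 (adjusted p = 0.0332) with all 3, lost when any library but cisplatin 1 was left out, and 2.48 ± 0.14 (adjusted p = 3.96e-11) without the crossed libraries.

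Mast cells also express ST2, and their genes were far higher with cisplatin. Of 12 mast cell and basophil markers 10 were called higher and 0 lower with all 3, and 12 higher without the crossed libraries. Their summed CPM was 289.8, 281.1 and 300.3 with PBS and 2112, 4154 and 4145 with cisplatin. Tpsb2, a mast cell tryptase, had no PBS count and stood at 518.4, 901.4 and 1026 CPM with cisplatin, at least 2149-fold higher against the same floor. The protease Cpa3 had 3 PBS counts and stood at 455.0, 714.5 and 606.1 CPM (adjusted p = 0.000207). Kit, the stem cell factor receptor, stood at 50.3, 55.3 and 59.9 CPM with PBS and at 77.5, 334.5 and 312.0 CPM with cisplatin (log2 change 2.13 ± 0.41, adjusted p = 0.00296, 10-library value 2.55). Cisplatin 1 was the lowest of the 3 for each, as it was for Il1rl1. The share of Il1rl1 counts from such cells was not tested.

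The summed level of B cell genes rose by contrast most in the first library. Of 12 B cell markers 9 were called higher and 1 lower with all 3, and 10 higher and 1 lower without the crossed libraries. Their summed CPM was 6222, 833.2 and 872.5 with cisplatin against 539.4 to 568.8 with PBS. Blk, the member called lower, made up most of the PBS sum. It stood at 445.8, 423.1 and 418.4 CPM with PBS and at 221.8, 287.4 and 311.8 CPM with cisplatin. Cd79b, a chain of the B cell receptor, stood at 19.9, 17.0 and 21.1 CPM with PBS and at 776.6, 76.8 and 76.8 CPM with cisplatin (log2 change 4.0 ± 1.01, adjusted p = 0.0115 with all 3, 10-library value 1.99, 12-library call lost without PBS 2). Its part in the MHC class II levels of cisplatin 1 was not tested.

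**Figure D5:**
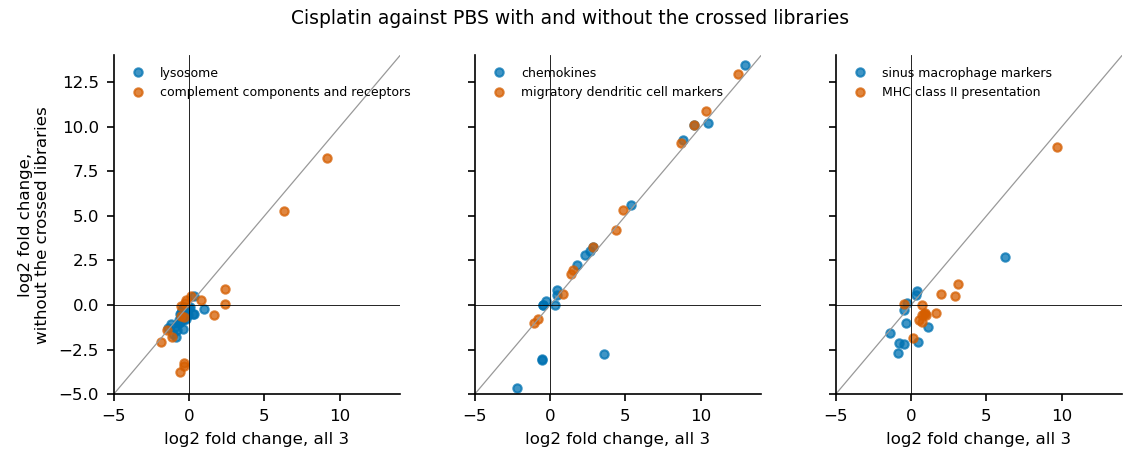
Log2 fold change of list members with all 3 cisplatin libraries (horizontal) against that without the crossed libraries (vertical), for 6 lists in 3 panels; the grey line marks equal values. Ccr7, Ccl5 and Ccl22 lie near the line, while the chemokine Ccl8 (3.6 with all 3, -2.7 without the crossed libraries) lies far below it. Sinus macrophage and MHC class II genes lie mostly below the line.

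The effect was then compared with that in MSM of LN nodes, as a difference of the log2 fold changes (TDLN minus LN) in the 12-library model. It was higher in the TDLN for 5289 genes (31.1%) and lower for 1639 (9.64%) at an adjusted p under 0.05, and without the crossed libraries for 7898 and 4056. Macrophage transcripts were low in the LN cisplatin group, where Adgre1 averaged 3.71 ± 0.25 CPM (SD, n = 3) against 432.6 ± 204.0 in LN PBS, 399.4 ± 201.1 in TDLN cisplatin and 294.9 to 313.1 in TDLN PBS. The part of these levels in the differences was not tested. Egr1 averaged 342.7 ± 10.34 and 1405 ± 768 CPM with PBS and cisplatin in the TDLN, and 769.6 ± 34.4 and 211.3 ± 7.4 CPM in the LN, a difference of 3.90 ± 0.52 (adjusted p = 0.000249). Il1rl1 averaged 32.1 ± 18.4 CPM in LN PBS and 1.03 ± 0.73 CPM in LN cisplatin, which gave a difference of 6.96 ± 1.03 (adjusted p = 0.000445). Zfp182, a zinc finger gene, stood at 47.6 ± 4.98 and 6.94 ± 1.14 CPM in the TDLN and at 10.9 ± 4.68 and 24 ± 4.26 CPM in the LN (difference -3.91 ± 0.45, adjusted p = 0.000102). Egr1 and Il1rl1 had higher means with cisplatin in the TDLN and lower means in the LN, and Zfp182 the reverse. For Il33 the difference was 7.57 ± 4.49 (adjusted p = 0.218) and turned to -8.58 without the crossed libraries.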

How the data were processed

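Expected counts per gene for 48 libraries were made by the authors from reads aligned with STAR (version not given in the sources used here) to GRCm38 and quantified with RSEM 1.3.0, with DESeq2 1.38.3 also named, per the submitters' processing notes. Libraries were made from polyA RNA with a stranded kit, per the labels' protocols. The deposited counts hold 55487 genes, 99.4% of them with a symbol. A second deposited table of TPM values with their decimals removed, treated as a score, served only to check that each of 24 macrophage columns matched its own counterpart.

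Counts were fitted as deposited with edgeR 4.0.16 (R 4.3.3) by the quasi-likelihood test, and were rounded for DESeq2 only. The edgeR fits used TMM scaling, the default low-count filter by group and Benjamini-Hochberg adjustment over all genes tested. All adjusted p-values are from the edgeR quasi-likelihood test, and SE is the fold change divided by the root of its F. Alternatives were DESeq2 1.42.0, its size factors, other filters, other sets of libraries, a replicate block and each library left out. Figures used Python 3.11.15 and matplotlib 3.10.9. The members, tests and 47 gene lists were chosen with earlier results of these data known. Named genes were the 12 with the largest fold change and the 10 with the largest CPM difference per direction (mean of at least 20 CPM), and up to 6 per list. Those named by fold change or CPM difference came only from genes called in both models whose groups did not overlap. For them, agreement of the models and lack of overlap were fixed in advance and are no support. Others were chosen after their values were seen, among them Siglec1, Tpp1, Gaa, Lamp1, Mcoln1, C1qa, Ccl2, Cx3cl1, Ifit1, Ifit2, Oas3, Irf9, Slc31a1, Slc31a2, Atp7a, Ercc1, Ercc3, Fancc, Lig1, Ddb2, Mdm2, Phlda3, Top2a, Mki67, Bcl2, Cflar, Apaf1, Bad, Hspa1a, Pgk1, Idi1, Pltp, Cd274 and Havcr2.

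Counts were simulated with the means and sizes of these libraries. The 12-library model recovered 72 of 100 genes changed 4-fold and 19 of 100 changed 2-fold, and called 5 unchanged genes among 15531 tested. The 10-library model recovered 100 and 86 of 100, and called 18 unchanged genes among 17136 tested. Every simulated library was drawn around the mean of its group, so none stood apart as cisplatin 1 does. These shares may therefore not hold for the data. Whether replicate numbers pair the libraries is unknown. Correlations of deviations from the group means lay between -0.081 and 0.068, and at 0.043, 0.068 and -0.007 for same-numbered libraries. They cannot decide the question, because the cisplatin mean includes cisplatin 1, which stands apart.

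A few genes are not reported here.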

Additional observations from a re-analysis of the deposited data

Results flagged for a closer look

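Of all genes tested, 31.1% had a higher and 9.64% a lower cisplatin effect in the TDLN than in the LN. Most of the 8 genes examined singly were named for large changes in the TDLN, so their share has no meaning of its own. For 7 of them the effect differed, by the interaction term of the 12-library edgeR model with adjustment over all genes. Each value is the TDLN log2 fold change minus the LN one. Cd40 and Hcar2 had 2 counts each over the TDLN PBS libraries, so their fitted differences depend on the model's prior count and are no measured size. Cd40 differed by 9.08 ± 0.91 (adjusted p = 4.63e-05), from LN means of 68.1 ± 24.9 CPM with PBS and 101.9 ± 1.76 CPM with cisplatin. Hcar2, the niacin receptor, differed by 11.41 ± 1.37 (adjusted p = 0.000133), with LN means of 75.5 ± 52.8 and 17.8 ± 2.91 CPM. Egr1 differed by 3.90 and Il1rl1 by 6.96. Zfp182 differed by -3.91. Cand2, an inhibitor of cullin ligase assembly, differed by -3.01 ± 0.61 (adjusted p = 0.00303), with means of 40.1 ± 3.08 and 6.36 ± 1.41 CPM in the TDLN and 9.27 ± 5.41 and 11.8 ± 2.10 CPM in the LN. Tmppe, a transmembrane phosphoesterase, differed by -2.71 ± 0.61 (adjusted p = 0.00521), with means of 49.5 ± 2.17 and 7.67 ± 4.80 CPM against 25.3 ± 1.28 and 25.6 ± 4.41 CPM (SD, n = 3 throughout). Lyz2 averaged 10960 ± 982 CPM in LN PBS and 1507 ± 36.3 CPM in LN cisplatin, and the part of these levels in the differences was not tested.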

How the results depend on the processing

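With all 3 cisplatin libraries the counts of 4357 higher and 1948 lower genes became 7648 and 5026 in the 10-library model, 6552 and 4994 in the 5 TDLN libraries alone, and 1211 lower at 2-fold or more. Leaving out 1 library at a time gave 2870 (without PBS 1) to 5489 (without cisplatin 1) higher and 1352 to 2862 lower. DESeq2 gave 4484 and 2519. Of the 10-library counts, the lower ones fell to 2862 when cisplatin 1 alone was left out, and other libraries left out gave 7241 to 7406 higher and 4650 to 4744 lower. The node difference had 4056 lower genes in the 10-library model, and 4693 to 6542 higher and 1241 to 2323 lower with 1 library left out. Direction changed in the 5 libraries, the 10 libraries and without cisplatin 1 for Timd4 (-2.10, -2.10, -2.10), Cdkn1a (0.21, 0.21, 0.21), H2-Ab1 (-0.95, -0.95, -0.95) and Cd74 (-0.53, -0.53, -0.54), whose highest values with 1 library left out were 2.27, 0.21, 1.15 and 1.25, and for Cdkn1a the lowest was -0.62. It changed without cisplatin 2 or 3 for C1qb (0.21, 0.21) and C1qc (0.21, 0.20), with lowest values of -3.45 and -3.25 without cisplatin 1. The node difference of Il33 became -8.58 in the 10 libraries, -0.94 without LN PBS 2 and -0.07 without cisplatin 1, and was at most 8.17 with 1 library left out. The cause of these shifts was not tested. With the replicate block the counts were 3441 and 1511 with all 3, 7521 and 4962 in the 10-library model and 4512 and 1446 for the node difference, and 10 of the 88 calls followed gene by gene were lost. Of those 88 calls 65 held under each library left out, and 23 did not. Genes with 3 PBS counts or fewer limit the precision of rises from near 0.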

Other observations

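Counts for the other lists are from all 3 libraries unless stated, where 25.6% of all genes were higher and 11.5% lower. Monocyte markers had 4 of 10 higher and 1 lower, with summed CPM of 2809, 5873 and 6543 with cisplatin against 3229 to 3274 with PBS. Autophagy genes had 3 of 20 higher and 3 lower, apoptotic cell uptake genes 4 of 20 and 3, and scavenger receptors 3 of 14 and 3. Unfolded protein response genes had 3 of 17 higher and 1 lower, STING and DNA sensing genes 1 of 9 and 0, MHC class I genes 1 of 14 and 1, and genes of the CSF1 niche 1 of 11 and 0. For iron and heme recycling 2 of 15 were lower and 0 higher with all 3, and 12 lower and 1 higher without the crossed libraries. Respiratory chain genes had 1 of 21 lower with all 3 and 16 lower without the crossed libraries, with 0 higher in both.

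Markers of other cells were also counted. NK and innate lymphoid markers had 1 of 12 higher and 1 lower, plasma cell markers 5 of 8 and 0, germinal centre B cell markers 2 of 5 and 0, and eosinophil markers 1 of 6 and 0. Summed CPM of the plasma cell markers was nonetheless lower, at 585.9, 941.5 and 1019 with cisplatin against 1044 to 1093 with PBS. Classical dendritic cell markers had 1 of 12 higher and 1 lower and plasmacytoid ones 2 of 9 and 0. Lymphatic endothelial markers had 1 of 7 higher, blood endothelial 5 of 7 and fibroblastic reticular 3 of 7, with 0 lower in each. Of the 10 members of each list 4, 7 and 5 had no PBS count, in that order. Without the crossed libraries 3 lymphatic endothelial and 3 fibroblastic reticular markers were lower. Erythroid and platelet markers had 0 of 4 higher and 1 lower, and melanocyte lineage markers 1 of 9 and 1.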
